A study of Mus musculus with 9 samples.

Results

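A set of 10 genes that mark macrophages and microglia was followed through RNA sequencing of whole mouse eyeballs: C1qa, C1qb, C1qc, Csf1r, Aif1, Tyrobp, Trem2, Cd68, Adgre1 and Ptprc. They were taken by gene symbol from the 22587 genes of the deposited tables, and all 10 were present, each on 1 line with a count in every library. The mice were wild-type females of the albino strain BALB/C, treated for 2 weeks from 6 weeks of age, with tissue at postnatal day 56. The T.chuii group received intraperitoneal scopolamine, a blocker of muscarinic acetylcholine receptors used to produce dry eye, and was fed the green microalga Tetraselmis chuii at 300 mg/kg. The DES group received the same injections and water. The CON group was not injected and drank water, so the drug and the act of injecting it cannot be told apart. Each group had 3 libraries from a study of 15 mice. The labels do not say that each library is 1 mouse, and if they are not, the spread behind the p-values is partly technical.

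Macrophages settle in the stroma of the cornea, the iris, the ciliary body and the choroid, and microglia are the resident macrophages of the retina. Both depend on signals through the Csf1r receptor, clear debris by phagocytosis and make most of the C1q that opens the classical complement pathway. The markers fall into secreted C1q chains (C1qa, C1qb, C1qc), a growth factor receptor (Csf1r), a receptor and its signalling adaptor (Trem2 and Tyrobp), proteins used to stain the cells (Aif1, Cd68, Adgre1) and Ptprc, a phosphatase on the surface of all leukocytes. In whole-eye RNA, fewer macrophages and less RNA per macrophage cannot be told apart.

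Library totals lay between 39.1 and 64.6 M reads, and markers of the eye were present: rod genes held 0.747% to 3.96% of reads and corneal epithelial genes 1.18% to 7.08%. The libraries T.chuii 1, DES 1 and CON 2 stood apart, with rod shares of 0.747%, 1.36% and 1.35% against at least 2.87% in the other 6. Lens crystallins were nearly absent from DES 2 (0.0408%) and all CON libraries (0.0201% to 0.0287%), against 1.21% to 5.86% in the others. The 10 markers together held only 0.0101% to 0.0178% of reads, with Wilson 95% intervals of 0.0174% to 0.0182% at the highest library and 0.0098% to 0.0103% at the lowest, which cover counting error alone.

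The 3 C1q genes are neighbours within 18.7 kb of chromosome 4 (136880126 to 136898844), read from the minus strand. Trem2 (48346401 to 48352276), Aif1 (35170986 to 35176083) and Adgre1 (57358581 to 57483529) lie apart on chromosome 17, Tyrobp on chromosome 7 (30413782 to 30417582), Cd68 on chromosome 11 (69664213 to 69666170) and Ptprc on chromosome 1 (138062859 to 138175756). Coordinates are those of RefSeq on GRCm38.p6, the assembly known as mm10. None of these 9 overlaps another gene of the tables there. PU.1, the product of Spi1, is a transcription factor of the macrophage lineage that binds purine-rich sites around GAGGAA. RefSeq start-site windows were at hand for 6 of the 10 genes (7 windows, Ptprc having 2), each with 250 bases before and 50 after the start. On either strand, GAGGAA stood in 6 of the 7 windows and in 28.3% of the 32851 windows of all genes, while GAGGAAG, which contains it, stood in 2 of 7 (C1qc and Trem2) and in 13.6%. A match of these letters is a description and not evidence of binding. The 250 bases upstream of C1qb, Trem2 and Cd68 are shown, a secreted chain, a surface receptor and a lysosomal protein, with each match to GAGGAA or its reverse complement TTCCTC in capitals. They read 5' to 3' on the gene's strand and span chr4:136886201-136886450 (minus), chr17:48346151-48346400 (plus) and chr11:69666171-69666420 (minus). The match begins at position -30, -40 and -225 from the start site in that order, on the opposite strand in Trem2. Cd68 has another on the opposite strand at position 30, beyond the bases shown.
C1qb: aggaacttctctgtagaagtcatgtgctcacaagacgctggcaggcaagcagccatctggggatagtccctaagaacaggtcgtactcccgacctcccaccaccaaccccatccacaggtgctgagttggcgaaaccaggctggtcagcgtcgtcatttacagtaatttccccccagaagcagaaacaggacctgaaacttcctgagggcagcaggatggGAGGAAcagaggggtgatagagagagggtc
Trem2: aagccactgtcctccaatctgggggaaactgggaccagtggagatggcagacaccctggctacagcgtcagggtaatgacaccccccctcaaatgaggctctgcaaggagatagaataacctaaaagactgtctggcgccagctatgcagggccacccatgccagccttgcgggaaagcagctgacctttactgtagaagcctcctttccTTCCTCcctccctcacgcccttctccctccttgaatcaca
Cd68: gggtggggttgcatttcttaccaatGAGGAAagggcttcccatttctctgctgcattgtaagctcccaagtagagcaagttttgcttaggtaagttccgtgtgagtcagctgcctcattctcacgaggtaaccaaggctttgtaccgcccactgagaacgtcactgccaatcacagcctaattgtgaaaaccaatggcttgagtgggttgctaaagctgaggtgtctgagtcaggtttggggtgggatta

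Per transcript length (FPKM), the C1q chains were the most abundant of the 10. C1qc averaged 23.2 ± 4.47 FPKM over the 9 libraries (SD), C1qb 22.1 ± 4.79 and C1qa 18.2 ± 3.87. C1qc lay above C1qb in 8 of 9 libraries by a median ratio of only 1.07, less than the spread between libraries, whereas C1qb exceeded C1qa in 9 of 9. Cd68 followed at 13.3 ± 4.84 FPKM and Tyrobp at 11.2 ± 3.5, and these did not keep an order, Cd68 being the higher in 5 of 9. Csf1r stood at 4.96 ± 0.901 FPKM and Aif1 at 3.87 ± 0.844, with Csf1r higher in 7 of 9. Trem2 (2.29 ± 0.435), Adgre1 (0.923 ± 0.197) and Ptprc (0.429 ± 0.0824) came last, each below the gene before it in 9 of 9 libraries. The pan-leukocyte gene Ptprc was thus the lowest of the set. Counts ran between 84 reads (Ptprc in CON 1) and 1879 reads (C1qb in CON 3). For every gene the spread within groups exceeded counting error: the coefficient of variation was 20.8% for C1qc against 2.82% expected of counting, and 25.3% for Ptprc against 9.1%.

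**Figure D1:**
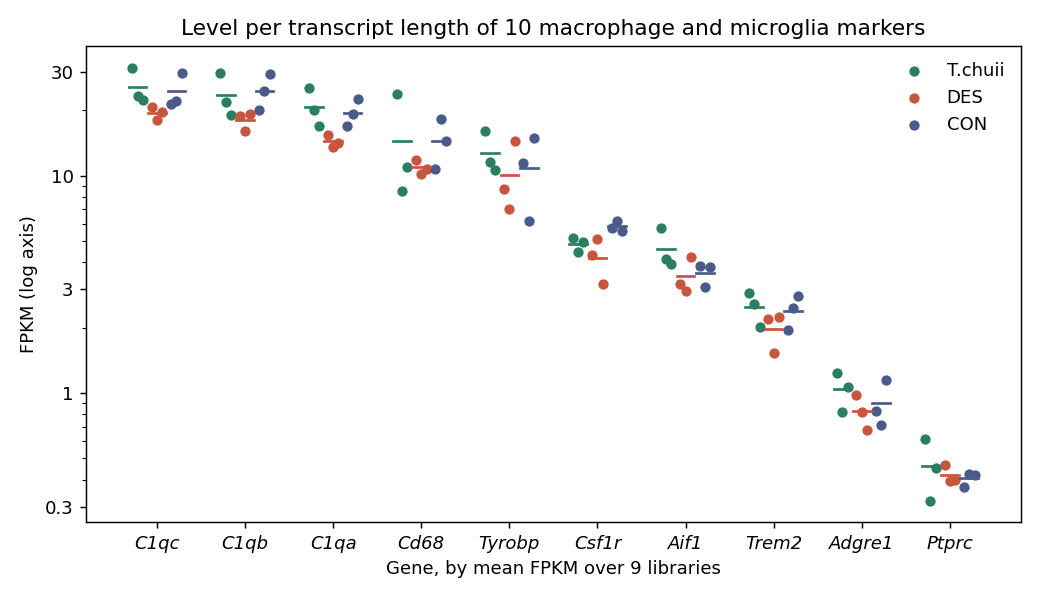
FPKM (log axis) of the 10 markers in 9 libraries, 1 point per library, with a line at each group mean (n = 3). The C1q chains lie highest, between 13.6 and 31.4 FPKM, and Ptprc lowest, between 0.32 and 0.614 FPKM. For the 3 chains every DES point lies below every CON point, as for 2.7% of all genes in FPKM. In CPM these groups overlap for all 3 chains.

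Across the 3 comparisons no marker passed the test. Limma-voom called 0 of the 10 and 0 of all 21287 genes tested in each comparison (0% background). At an unadjusted p under 0.05 it had 0 of the 10 in each, against 233 genes in T.chuii vs DES (1.09%), 235 in DES vs CON (1.1%) and 912 in T.chuii vs CON (4.28%). Limma-trend on log2(FPKM + 1) also called 0 genes, with 277 genes at an unadjusted p under 0.05 in T.chuii vs DES, 310 in DES vs CON and 1078 in T.chuii vs CON, among them 1 marker, C1qa in T.chuii vs DES. Values between groups are given below as CPM, read counts scaled to library size by trimmed means, with fitted log2 changes ± standard error.

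Directions are counted from the fitted log2 changes. All 10 markers had a change above 0 in T.chuii vs DES (median 0.38, against -0.03 over all genes), where 45.1% of all genes were above 0 and 54.9% below. In DES vs CON, 9 of 10 were below 0 (median -0.26, against -0.02), where 52.4% of all genes were below and 47.6% above. In T.chuii vs CON, 7 of 10 were above 0 (median 0.13, against -0.04), where 44.6% of all genes were above and 55.4% below. By mean CPM the counts differed: 10 of 10 were higher in T.chuii than in DES, 8 of 10 lower in DES than in CON, and 9 of 10 higher in T.chuii than in CON. T.chuii vs DES and DES vs CON share the DES libraries, so a low DES library enters both. Single libraries moved these medians. Without T.chuii 1 the median in T.chuii vs DES was 0.18 with 8 of 10 above 0, and without DES 2 it was 0.21 with 9 of 10 above. Without DES 2 the median in DES vs CON was -0.01, with 5 of 10 below 0. Without T.chuii 1 the median in T.chuii vs CON was -0.06, with 7 of 10 below 0.

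**Figure D2:**
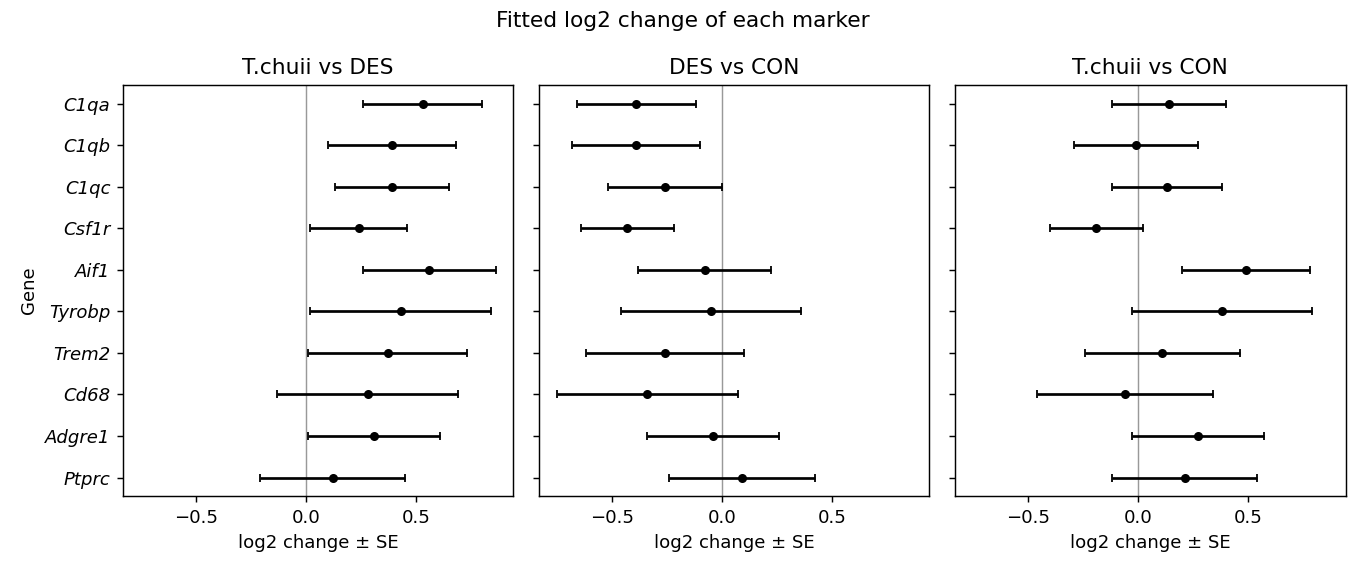
Fitted log2 change ± SE (limma-voom, all 9 libraries in 1 fit) of the 10 markers in each comparison, with a line at 0. All 10 points lie right of 0 in T.chuii vs DES and 9 lie left of it in DES vs CON, and none passed the test.

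The C1q chains assemble into the recognition part of complement component C1. C1qa was at 31.7, 23.8 and 18 CPM in the T.chuii libraries (replicates 1 to 3), 18.5, 13.5 and 18.2 in DES, and 17.6, 23.6 and 23.7 in CON. T.chuii and DES overlapped only narrowly, T.chuii 3 lying just below the higher DES libraries. The means were 24.5 ± 6.86 CPM in T.chuii, 16.7 ± 2.78 in DES and 21.6 ± 3.5 in CON (SD, n = 3). The T.chuii vs DES log2 change of C1qa, 0.53 ± 0.27, had the smallest p of the 10 in that comparison (limma-voom, unadjusted p = 0.0725, adjusted p = 1). DES vs CON gave -0.39 ± 0.27 (unadjusted p = 0.168, adjusted p = 1) and T.chuii vs CON 0.14 ± 0.26 (unadjusted p = 0.605, adjusted p = 0.99).

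C1qb was at 38.2, 26.7 and 20.6 CPM in T.chuii, 23.2, 16.3 and 25.3 in DES, and 21.3, 30.9 and 31.5 in CON. C1qc was at 38.8, 28 and 23.2 CPM in T.chuii, 24.5, 18.2 and 25.4 in DES, and 22.1, 27.1 and 31.4 in CON. For both genes all groups overlapped, T.chuii 1 was the highest library and DES 2 the lowest. Their T.chuii vs DES changes were 0.39 ± 0.29 for C1qb and 0.39 ± 0.26 for C1qc, and their DES vs CON changes -0.39 ± 0.29 and -0.26 ± 0.26. Without T.chuii 1 the T.chuii vs DES changes were 0.34 for C1qa, 0.17 for C1qb and 0.2 for C1qc, and without DES 2 the DES vs CON changes were -0.22, -0.18 and -0.09 in the same order of genes. The chains kept nearly fixed proportions within a library: the C1qb to C1qa ratio in CPM ran from 1.12 to 1.39, and the C1qc to C1qa ratio from 1.15 to 1.4. Whether the groups of C1q values overlapped depended on the scale. In the deposited FPKM, which carry the library scaling of the authors, C1qa was at 25.2, 20 and 16.9 in T.chuii, 15.3, 13.6 and 14.2 in DES, and 16.9, 19.2 and 22.4 in CON. All 3 DES libraries then lay below all 3 CON libraries for C1qa, C1qb and C1qc, and below all 3 T.chuii libraries for C1qa and C1qc. With Csf1r that made 4 of 10 markers with every DES library below every CON library, against 2.7% of all genes in FPKM, and 2 of 10 with every T.chuii library above every DES library, against 1.91%. In CPM those counts were 1 of 10 each, Csf1r. The shares without overlap in either direction were 3.58% in T.chuii vs DES (1.68% with T.chuii below), 4.04% in DES vs CON (1.34% with DES above) and 11.5% in T.chuii vs CON (3.6% with T.chuii above and 7.9% below). Limma-trend on log2(FPKM + 1) gave C1qa 0.48 ± 0.2 in T.chuii vs DES (unadjusted p = 0.0352, adjusted p = 1) and -0.41 ± 0.2 in DES vs CON (unadjusted p = 0.0641, adjusted p = 1), so the chains did not pass the test on that scale either. Reads of the 3 chains made up 53.2% to 60.9% of all reads of the 10 markers.

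**Figure D3:**
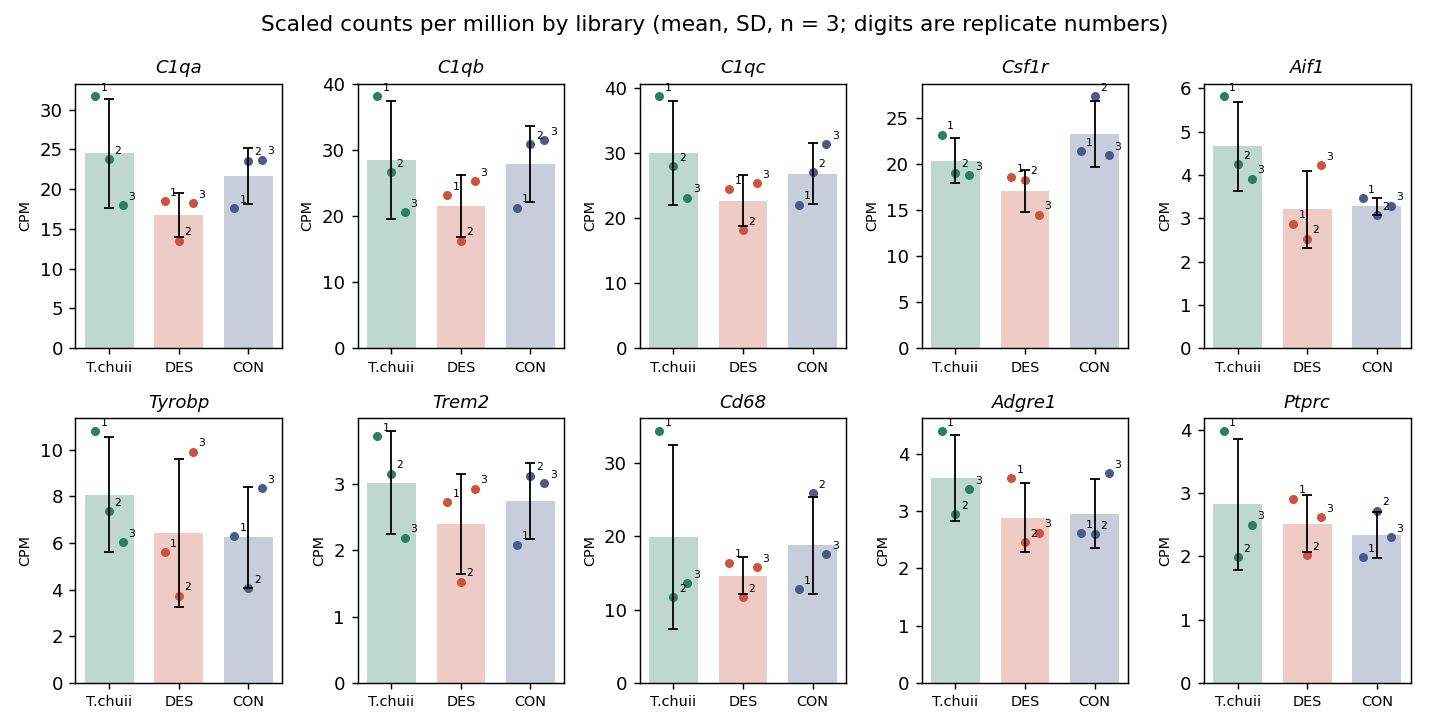
Scaled CPM of each marker by group, with bars for the mean, error bars for the SD (n = 3) and 1 numbered point per library. T.chuii 1 is the highest point in 9 of 10 panels, Csf1r being the exception, and DES 2 is the lowest in 8 of 10.

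Csf1r, the receptor tyrosine kinase for the growth factors Csf1 and Il34, was at 23.2, 19.1 and 18.8 CPM in T.chuii, 18.6, 18.3 and 14.5 in DES, and 21.4, 27.4 and 21 in CON. Every DES library lay below every CON library and every T.chuii library, in the second case by a margin of 18.8 against 18.6. In CPM it was the only marker whose groups did not overlap in DES vs CON (3.65% of all genes, 1.65% with DES below and 2% with DES above) and in T.chuii vs DES (4.8% of all genes, 2.3% with T.chuii above and 2.49% with T.chuii below). Means were 20.4 ± 2.44 CPM in T.chuii, 17.1 ± 2.25 in DES and 23.3 ± 3.58 in CON (SD, n = 3). The DES vs CON change of -0.43 ± 0.21 had the smallest p of the 10 there (limma-voom, unadjusted p = 0.0697, adjusted p = 1), and T.chuii vs DES gave 0.24 ± 0.22 (unadjusted p = 0.297, adjusted p = 1). In FPKM, DES (4.3, 5.12 and 3.17) again lay below CON (5.74, 6.21 and 5.56) but overlapped T.chuii (5.15, 4.46 and 4.93), which itself lay below CON. Without DES 3 the T.chuii vs DES change was 0.14. Csf1r also had the smallest within-group variation of the 10 (13.6%). Csf1r lies on chromosome 18 (61105572 to 61131139, RefSeq on GRCm38.p6), where the GENCODE annotation has it overlap Hmgxb3, a protein-coding gene on the opposite strand with 355, 486 and 466 reads in T.chuii, 592, 643 and 290 in DES, and 408, 808 and 524 in CON. The sources used here do not say whether counting kept the strands apart, so reads of these genes may have been shared and the Csf1r values are uncertain to that extent.

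For the Csf1r ligands the groups overlapped in every comparison. Il34, the ligand made mainly by neurons and epithelia, averaged 6.28 ± 0.804 CPM in T.chuii, 6.76 ± 1.55 in DES and 7.89 ± 3.06 in CON. Csf1 averaged 7.56 ± 2 CPM in T.chuii, 7.16 ± 2.03 in DES and 7.89 ± 1.63 in CON. Their DES vs CON changes were -0.21 ± 0.32 and -0.13 ± 0.32 and did not pass the test.

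Aif1, which encodes the calcium-binding protein used to stain microglia, was at 5.82, 4.25 and 3.91 CPM in T.chuii, 2.87, 2.53 and 4.22 in DES, and 3.46, 3.07 and 3.29 in CON. Every T.chuii library lay above every CON library, in CPM the only marker for which those groups did not overlap (8.42% of all genes, 5.45% with T.chuii above and 2.97% with T.chuii below), while DES 3 reached into the T.chuii range. In FPKM the same held, at 5.75, 4.12 and 3.91 in T.chuii against 3.84, 3.08 and 3.79 in CON. The change was 0.49 ± 0.29 in T.chuii vs CON (limma-voom, unadjusted p = 0.125, adjusted p = 0.986) and 0.56 ± 0.3 in T.chuii vs DES (unadjusted p = 0.0838, adjusted p = 1). DES vs CON gave -0.08 ± 0.3. Without T.chuii 1 the T.chuii vs CON change was 0.32, and without the 3 rod-poor libraries it was 0.26.

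Cd68, a glycoprotein of lysosomes in phagocytes, was at 34.4, 11.7 and 13.6 CPM in T.chuii, 16.4, 11.7 and 15.8 in DES, and 12.8, 25.9 and 17.6 in CON. Its high values were those of T.chuii 1 and CON 2, 2 of the 3 rod-poor libraries, and the other 7 lay between 11.7 and 17.6. Cd68 had the widest within-group variation of the set (43%), and its changes were 0.28 ± 0.41 in T.chuii vs DES, -0.34 ± 0.41 in DES vs CON and -0.06 ± 0.4 in T.chuii vs CON. Without T.chuii 1 the T.chuii vs DES value was -0.17 and the T.chuii vs CON value -0.52, and without CON 2 the DES vs CON value was -0.08.

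Adgre1, an adhesion receptor on the surface of mature mouse macrophages, was at 4.4, 2.95 and 3.38 CPM in T.chuii, 3.57, 2.46 and 2.62 in DES, and 2.61, 2.6 and 3.66 in CON. The groups overlapped in all comparisons. Its changes were 0.31 ± 0.3 in T.chuii vs DES, -0.04 ± 0.3 in DES vs CON and 0.27 ± 0.3 in T.chuii vs CON. Without T.chuii 1 the T.chuii vs DES change was 0.16 and the T.chuii vs CON change 0.11. Without the 3 rod-poor libraries DES vs CON gave -0.32 and T.chuii vs CON 0.

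Trem2 is a lipid-sensing receptor of microglia and macrophages that signals through the adaptor encoded by Tyrobp. Trem2 was at 3.73, 3.16 and 2.19 CPM in T.chuii, 2.73, 1.53 and 2.93 in DES, and 2.09, 3.13 and 3.02 in CON. Each group held low and high libraries, and the changes were 0.37 ± 0.36 in T.chuii vs DES, -0.26 ± 0.36 in DES vs CON and 0.11 ± 0.35 in T.chuii vs CON. Without DES 2 the T.chuii vs DES change was 0.09 and the DES vs CON change 0.06. Relative to the C1q sum Trem2 was the steadiest of the other 7 markers, its ratio in CPM running from 0.0319 to 0.0425.

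Tyrobp was at 10.8, 7.35 and 6.03 CPM in T.chuii, 5.6, 3.74 and 9.91 in DES, and 6.29, 4.06 and 8.35 in CON. Its changes were 0.43 ± 0.41 in T.chuii vs DES, -0.05 ± 0.41 in DES vs CON and 0.38 ± 0.41 in T.chuii vs CON. Without DES 2 the T.chuii vs DES change was 0.11 and the DES vs CON change 0.31, and without CON 2 the T.chuii vs CON change was 0.08. Without the 3 rod-poor libraries DES vs CON gave -0.34 and T.chuii vs CON -0.15. Tyrobp followed its receptor only in part. In CON 2, where Trem2 was the third highest of 9 and Csf1r the highest, Tyrobp was the second lowest, and its ratio to the C1q sum there was 0.0498, against 0.144 in DES 3 and a median of 0.0965. That ratio varied by 2.89 times, the most of the 7.

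Ptprc, which lymphocytes and granulocytes also carry, was at 3.98, 1.99 and 2.5 CPM in T.chuii, 2.91, 2.02 and 2.62 in DES, and 1.99, 2.72 and 2.3 in CON. It was the only marker with a fitted DES vs CON change above 0 (0.09 ± 0.33), and T.chuii vs DES gave 0.12 ± 0.33. Lymphocyte markers were low. Of 12 T, B and natural killer cell genes 2 were in the tables, Cd79b with 9 to 63 reads and Cd4 with 4 to 21 reads per library, and the other 10 were not analysed here. Of 10 neutrophil genes 5 were present. Ltf, which glands also secrete, averaged 10.1 ± 3.23 CPM in T.chuii, 22.6 ± 22.8 in DES and 11.8 ± 9.2 in CON, and S100a9, which neutrophils hold in abundance, averaged 1.8 ± 1.73 CPM in T.chuii, 2.08 ± 3.01 in DES and 1.05 ± 0.874 in CON. Its partner S100a8 averaged 1.01 ± 1.02 CPM in T.chuii, 0.967 ± 1.39 in DES and 0.917 ± 0.691 in CON.

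Set side by side by library, the markers moved largely together. T.chuii 1 was the highest of the 9 libraries for 9 of the 10 markers, Csf1r being the exception, with CON 2 highest. DES 2 was the lowest for 8 of 10, the exceptions being Csf1r (lowest in DES 3) and Ptprc (lowest in T.chuii 2). Their summed level was 195, 129 and 112 CPM in T.chuii, 119, 90.3 and 122 in DES, and 112, 151 and 146 in CON, averaging 145 ± 43.8 CPM in T.chuii, 110 ± 17.5 in DES and 136 ± 21.2 in CON (SD, n = 3). For this sum T.chuii 2 lay within the CON range and T.chuii 3 at its lower end. As a description over 9 libraries, a marker's log2 CPM had a Pearson r with the mean of the other 9 (standardised) of 0.97 for C1qc, 0.94 for C1qa and C1qb, 0.87 for Trem2 and 0.81 for Cd68, against 0.59 for Tyrobp and 0.33 for Csf1r. These points share library depth and tissue make-up.

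**Figure D4:**
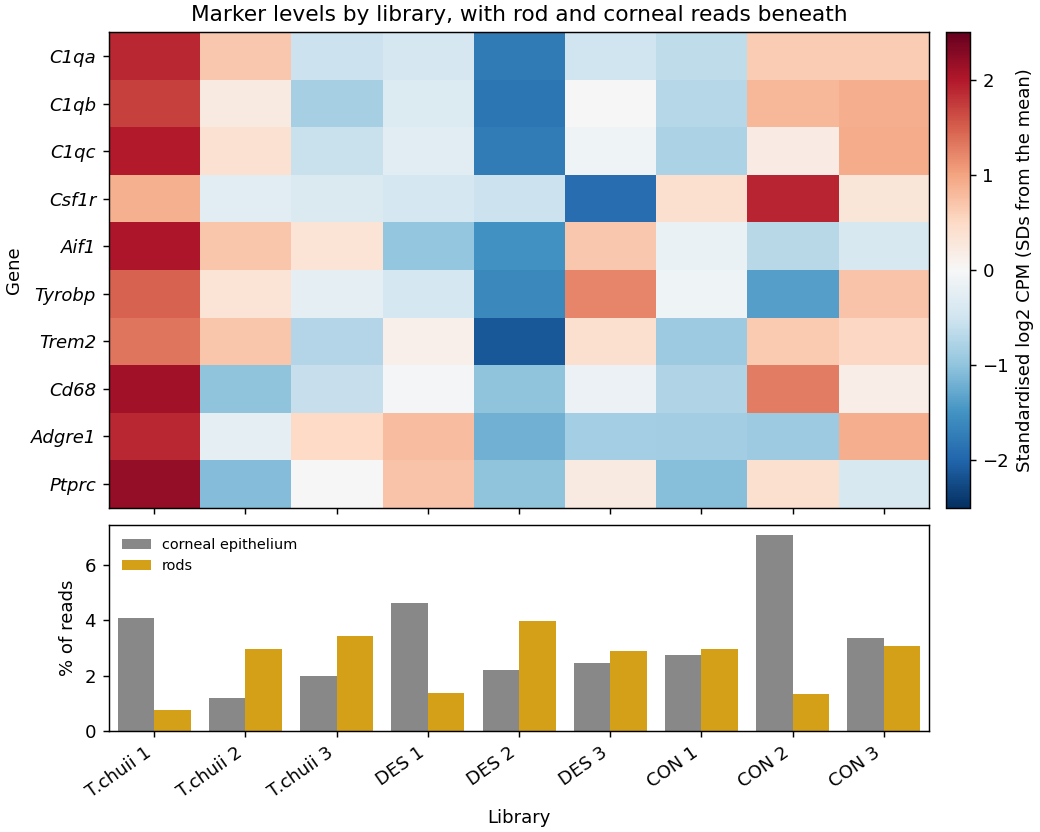
Upper part: log2 CPM of each marker in each library, standardised over the 9 libraries, with red above and blue below the gene's mean. Lower part: percent of reads from corneal epithelial and rod genes, where T.chuii 1, high for 9 of 10 markers, has the fewest rod reads (0.747%) and DES 2, lowest for 8, the most (3.96%).

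Tissue make-up differed between these 2 libraries. T.chuii 1 had the lowest rod share (0.747%) and the highest shares of red blood cell genes (0.158% against at most 0.0576% elsewhere), adipocyte genes (0.142% against at most 0.0338%) and myelin genes (0.109% against at most 0.0811%). DES 2 had the highest rod share (3.96%). Of the other rod-poor libraries, CON 2 (1.35%) had a marker sum of 151 CPM and DES 1 (1.36%) 119 CPM, against 146 CPM in CON 3 (3.05%). Some of these differences ran through the whole T.chuii group. Adipocyte genes held 0.142%, 0.0338% and 0.00886% of reads in T.chuii, against at most 0.00399% in DES and 0.00318% in CON. Myelin genes held 0.109%, 0.0175% and 0.0385% in T.chuii, against at most 0.0134% in DES, while CON reached 0.0811%. Fast muscle genes held 1.29%, 0.647% and 0.297% of reads in T.chuii, 0.63%, 0.199% and 0.117% in DES, and 0.207%, 0.0562% and 0.14% in CON. The part of these cell types in the marker levels was not tested beyond the fits that follow. The 8 rod genes had a median r of -0.76 with the mean of the 10 markers over the 9 libraries, between -0.84 and -0.53. Without the 3 rod-poor libraries the medians of the 10 markers were 0.24 in T.chuii vs DES (8 of 10 above 0), -0.33 in DES vs CON (9 of 10 below) and -0.04 in T.chuii vs CON (6 of 10 below). With the log2 ratio of corneal to rod reads as a covariate in the fit the medians were 0.4 in T.chuii vs DES, -0.16 in DES vs CON and 0.23 in T.chuii vs CON. No marker passed the test in either fit. At an unadjusted p under 0.05 the covariate fit had 2 of the 10 in T.chuii vs DES, against 911 of all 21287 genes. These were C1qa (limma-voom, unadjusted p = 0.0196, adjusted p = 0.999) and Aif1 (unadjusted p = 0.0449, adjusted p = 0.999).

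Other genes of these cells were read from lists chosen with earlier results of these data known, and none of their genes passed the test in any comparison (limma-voom, 0% background). Counts in these lists are again of fitted log2 changes above or below 0. Of 10 resident and perivascular macrophage genes, 9 were above 0 in T.chuii vs DES (median 0.48) and 9 in T.chuii vs CON (median 0.4). The most abundant per length, Cbr2, was at 661 ± 125 CPM in T.chuii, 884 ± 253 in DES and 822 ± 279 in CON. At 736 FPKM it stood far above the next gene of the list, Pf4 (9.27 FPKM). Cbr2 was highest in DES 2 (1160 CPM), the library lowest for most markers, and which cells its reads came from was not tested. The chemokine gene Pf4 was at 7.42 ± 5.14 CPM in T.chuii, 5.1 ± 3.3 in DES and 5.07 ± 3.21 in CON. The hyaluronan receptor gene Lyve1 was at 21 ± 2.11 in T.chuii, 13.8 ± 5.38 in DES and 15 ± 5.8 in CON. Cd163, the haemoglobin scavenger receptor of tissue macrophages, was chosen for mention after its values were seen. It was at 3.33, 3.47 and 3.1 CPM in T.chuii, 1.75, 1.62 and 1.57 in DES, and 2.16, 2.01 and 2.52 in CON, so every T.chuii library lay above every other library. Lyve1, at 18.6, 22.4 and 22.1 CPM in T.chuii, also lay above every DES and CON library, by a margin of 18.6 against 18.5. Of the 10 genes in this list, 3 had no overlap in T.chuii vs DES (4.8% of all genes) and 2 in T.chuii vs CON (8.42%). Over all genes, 2.3% had every T.chuii library above every DES library, and 5.45% above every CON library. The T.chuii vs DES change of Cd163 was 1 ± 0.26 (limma-voom, unadjusted p = 0.00338, adjusted p = 1), where 1.09% of all genes had an unadjusted p under 0.05. Unlike 9 of the 10 markers, Cd163 was not highest in T.chuii 1.

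Homeostatic microglia genes were split in direction: 6 of 10 were above 0 in T.chuii vs DES (median 0.11) and 6 of 10 below 0 in DES vs CON (median -0.19). Olfml3 was at 80.9 ± 35.2 CPM in T.chuii, 57 ± 22.3 in DES and 85.8 ± 44.9 in CON, and the membrane protein gene Tmem119 at 9.2 ± 1.51 in T.chuii, 9.41 ± 2.39 in DES and 12.7 ± 4.23 in CON. Of 11 phagocytic or activated macrophage genes measured, 9 were above 0 in T.chuii vs DES (median 0.25) and 9 below 0 in DES vs CON (median -0.14). The leading genes of that list, Cd9, Ctsd and Lgals3, stood at 331 FPKM or more, far above the 10 markers, and other eye cells express them too.

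The C1 proteases and the C1 inhibitor, made largely by stromal cells, were below 0 in DES vs CON in 5 of 5 (median -0.68) and above 0 in T.chuii vs DES in 5 of 5 (median 0.18). In T.chuii vs CON they were still below 0 in 5 of 5 (median -0.53). Keratocyte and scleral matrix genes were below 0 in DES vs CON in 6 of 6 (median -1.14). Of these, 3 were at an unadjusted p under 0.05 (limma-voom, 1.1% of all genes). Without overlap were 3 (3.65% of all genes, 1.65% with DES below), and none passed the adjusted threshold. In T.chuii vs CON all 6 were again below 0 (median -0.99), 3 at an unadjusted p under 0.05 (4.28% of all genes) and 0 without overlap. Their share of reads was 0.439%, 0.197% and 0.265% in T.chuii, 0.275%, 0.219% and 0.361% in DES, and 0.403%, 0.493% and 0.424% in CON, and its part in the C1 protease and C1q levels was not tested. Serping1, the inhibitor, was at 230 ± 99.6 CPM in T.chuii, 182 ± 52.9 in DES and 268 ± 81.9 in CON, and the proteases C1s1 at 33.7 ± 19.6 in T.chuii, 28.5 ± 5.46 in DES and 49.1 ± 28 in CON and C1ra at 21.5 ± 11.1 in T.chuii, 17.6 ± 4.21 in DES and 31.1 ± 17.4 in CON. The summed share of the C1 proteases and inhibitor was highest in CON 2 (0.0461%) and T.chuii 1 (0.0411%).

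Lineage transcription factors were above 0 in T.chuii vs DES in 4 of 7 and below 0 in DES vs CON in 6 of 7 (medians 0 and -0.32). Spi1 was at 2.35 ± 1.57 CPM in T.chuii, 1.84 ± 0.491 in DES and 2.3 ± 0.285 in CON. Maf, which lens fibres also express, was at 11.9 ± 3.54 in T.chuii, 8.41 ± 4.15 in DES and 4.29 ± 1.22 in CON. Runx1 was at 8.61 ± 3.96 in T.chuii, 11 ± 3.77 in DES and 12.3 ± 2.92 in CON. Of 6 measured genes for Tyrobp-coupled receptors and downstream signalling, 3 were above 0 in T.chuii vs DES and 5 below 0 in DES vs CON. Siglech, one of those receptors, was at 4.65 ± 0.17 CPM in T.chuii, 3.62 ± 0.427 in DES and 3.16 ± 0.587 in CON, Plcg2 at 4.24 ± 1.63 in T.chuii, 4.58 ± 2.23 in DES and 7.07 ± 4.01 in CON, and the kinase Syk at 4.16 ± 1.3 in T.chuii, 5.44 ± 2.79 in DES and 8.27 ± 5.62 in CON.

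Among monocyte genes, 2 of 5 were above 0 in T.chuii vs DES (median -0.07) and 2 of 5 below 0 in DES vs CON, with Plac8 at 126 ± 88.5 CPM in T.chuii, 146 ± 105 in DES and 116 ± 34.5 in CON, Ly6c2 at 8.41 ± 4.45 in T.chuii, 4.8 ± 1.33 in DES and 4.26 ± 1.99 in CON, and Itgam at 21 ± 10.3 in T.chuii, 20.4 ± 3.22 in DES and 29.5 ± 23.5 in CON. Dendritic cell and class II genes were above 0 in 2 of 8 in T.chuii vs DES and below 0 in 5 of 8 in DES vs CON (medians -0.12 and -0.06), with the class II invariant chain gene Cd74 at 42.9 ± 15.8 CPM in T.chuii, 44.8 ± 3.27 in DES and 47.3 ± 3.65 in CON, the class II gene H2-Ab1 at 17.3 ± 3.12 in T.chuii, 17.9 ± 0.692 in DES and 18.5 ± 2.17 in CON, and H2-Aa at 15.9 ± 4.42 in T.chuii, 18.4 ± 3.04 in DES and 15.2 ± 1.77 in CON. Mast cell genes were above 0 in T.chuii vs DES in 4 of 4 (median 0.69), with the mast cell proteases Tpsb2 at 11 ± 3.25 CPM in T.chuii, 8.89 ± 4.49 in DES and 11.1 ± 3.31 in CON, Cma1 at 9.02 ± 3.4 in T.chuii, 5.72 ± 3.94 in DES and 6.89 ± 3.54 in CON, and Cpa3 at 9.53 ± 3.04 in T.chuii, 6.66 ± 5.01 in DES and 6.67 ± 3.59 in CON. None of these passed the test.

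**Figure D5:**
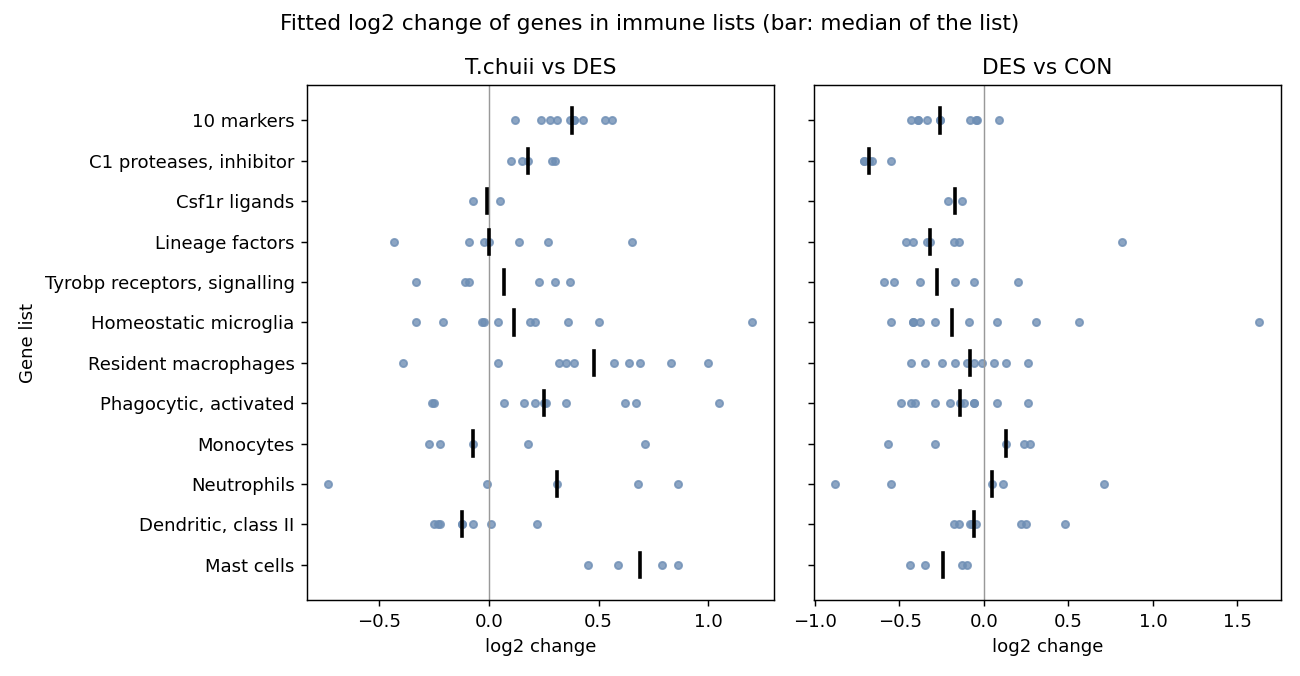
Fitted log2 change of each tested gene (points) for the 10 markers and for the other immune gene lists except lymphocytes, with a bar at the list's median, for T.chuii vs DES and DES vs CON. The 10 markers lie right of 0 in T.chuii vs DES (median 0.38), as do most resident macrophage genes (median 0.48), while microglia genes spread on both sides (median 0.11).

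By likeness of pattern over the 9 libraries, the genes outside the set with the highest Pearson r to the mean of the 10 markers were Msrb2 (0.96), Copz2 (0.957), Cd63 (0.956), Lyz2 (0.955), Tmem11 (0.954), Rp9 (0.952), Sgce (0.949), Atp5g2 (0.943), Serf2 (0.933) and Ahsa1 (0.93). Lyz2, the lysozyme gene of macrophages and other myeloid cells, was at 300, 162 and 126 CPM in T.chuii, 159, 88.4 and 145 in DES, and 99.8, 207 and 170 in CON. Cd63, a tetraspanin of late endosomes and lysosomes, was at 707, 463 and 426 CPM in T.chuii, 441, 298 and 489 in DES, and 424, 591 and 519 in CON. Both were highest in T.chuii 1 and lowest in DES 2, like most of the 10 markers, which their choice by r favours. Msrb2 (22.7 CPM in T.chuii 1 and 11.1 in DES 2) and Copz2 (46.7 and 19.2 CPM) had the same highest and lowest libraries. The lowest r were those of Rttn (-0.963), Kdm4d (-0.948), Ap5m1 (-0.941), Poc5 (-0.941) and Arih1 (-0.94). The r values rank genes among the 21287 tested and describe these libraries alone.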

How the data were processed

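Whole eyeballs went into stranded mRNA libraries, per the labels' protocols. The submitters' processing notes name StringTie 2.1.3b, HISAT2 2.1.0 and Bowtie2 2.3.4.1, the read tools Trimmomatic 0.38 and FastQC 0.11.7, and the build mm10. The counting step and its strand setting are not given in the sources used here. The deposited tables hold raw read counts and FPKM per gene, per the file headers. Rows vary in length, so symbol, FPKM and count were located by counting cells back from the row end. The smallest count in any library was 1, so a gene at 0 in a library may have been left out.

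A gene was kept if 3 or more libraries had at least 10 reads after rescaling to the median library size, with 15 reads in all, 21287 of 22587, all 10 markers among them. The deposited counts got TMM scaling factors (trimmed mean of M-values, own code) and were tested two-sided with limma-voom (limma 3.58.1, R 4.3.3), all 9 libraries in 1 fit leaving 6 residual degrees of freedom, with p-values adjusted by Benjamini-Hochberg over all genes at 0.05. The fit was tested on simulated counts with the same dispersion for every gene and no differences in tissue make-up, unlike these libraries. The markers, the 20 other lists (120 of 146 genes present) and the rules were chosen with earlier results of these data known. Named genes were all markers, the 3 genes of each immune list highest in FPKM, and the 10 highest and 5 lowest by likeness. Group overlap in FPKM was added after the values were seen. Some genes that met the rule are not reported here. Exceptions are marked, or name list genes whose role the text turns on. No pair of libraries agreed within sampling noise (lowest chi-square per degree of freedom 34.6). Tables were handled with Python 3.11.15 and pandas 2.3.3, intervals computed with scipy 1.17.1 and figures drawn with matplotlib 3.10.9.

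Libraries carry replicate numbers 1 to 3 in all groups, but the file headers number them 3, 4 and 5 in T.chuii, 1, 2 and 4 in DES and 1, 4 and 5 in CON. Deviations from group means correlated between same-numbered libraries at 0.56, 0.34 and 0.17 in T.chuii and DES, so that pair of groups met the criterion for pairing (all over 0.1), a hint from the data and not from the design. They did not for DES and CON (-0.3, -0.24 and 0.23) or T.chuii and CON (-0.3, -0.37 and 0.29). Differently numbered libraries of T.chuii and DES correlated at -0.56 to 0.46, so some exceeded a same-numbered pair. The only header number that T.chuii and DES share, 4, belongs to T.chuii 2 and DES 3, which correlated at -0.06. T.chuii 1 and DES 1, the pair at 0.56, are both rod-poor.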

Additional observations from a re-analysis of the deposited data

How the results depend on the processing

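T.chuii vs DES was refitted under 18 other settings and DES vs CON and T.chuii vs CON under 17 each, and no marker passed the threshold in any (smallest adjusted p = 0.516). Under some settings C1qa or Aif1 had an unadjusted p under 0.05 in T.chuii vs DES. Examples by limma-voom were library totals (C1qa, unadjusted p = 0.0488) and the fit without DES 3 (Aif1, unadjusted p = 0.0307). Of 520 refitted changes 483 kept their sign and 37 did not. With sample quality weights, signs turned in T.chuii vs DES for Cd68 (-0.04) and Ptprc (-0.07) and in T.chuii vs CON for C1qc (-0.04), Tyrobp (-0.06) and Adgre1 (-0.01). With the corneal to rod covariate they turned for Adgre1 in DES vs CON (0.03), and for C1qb (0.11) and Cd68 (0.2) in T.chuii vs CON. Without the 3 rod-poor libraries they turned in T.chuii vs DES for Cd68 (-0.09) and Ptprc (-0.03), and in T.chuii vs CON for C1qa (-0.01), C1qc (-0.07) and Tyrobp (-0.15). With each library left out in turn, changes crossed 0 in DES vs CON for Adgre1 (-0.21 to 0.13), Aif1 (-0.29 to 0.1), Ptprc (-0.03 to 0.26), Trem2 (-0.43 to 0.06) and Tyrobp (-0.4 to 0.31), in T.chuii vs DES for Cd68 (-0.17 to 0.59) and Ptprc (-0.14 to 0.37), and in T.chuii vs CON for C1qa (-0.06 to 0.35), C1qb (-0.24 to 0.21), C1qc (-0.07 to 0.3), Cd68 (-0.52 to 0.28), Ptprc (-0.06 to 0.49) and Trem2 (-0.06 to 0.33). The cause was not tested. Over all genes, calls went above 0 in DES vs CON without DES 2 (leave-one-out range 0 to 15), in T.chuii vs CON with quality weights (2), with only those 2 groups fitted (12) and without the rod-poor libraries (1), and in T.chuii vs DES without the rod-poor libraries (1). With the replicate number as a block in the fit of all libraries, 0 genes and 0 markers passed in each comparison. A paired fit of T.chuii and DES alone, added after seeing the data, called 2 genes, neither a marker, and gave C1qa 0.56 ± 0.21 (adjusted p = 0.722). Median-of-ratios scaling, library totals, no filter and both pseudocounts turned no sign. Limma-voom was fixed as the main test and no count-model test was run beside it. The counts stand outside the columns their headers name, so a unit check by header position could not accept them. Counts of 84 to 250 reads limit Ptprc, Trem2, Adgre1 and Aif1, whose counting error alone was 7.55% to 9.1%.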
